A study of Mus musculus with 2 samples.

Results

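The mitochondrial genome of the mouse carries 37 genes, and all 37 had a row in the deposited count table of 46983 genes. They were taken by annotation, as every Ensembl identifier that GENCODE M21 (GRCm38) gives a symbol starting with mt-. Earlier results of these data were known when the set was chosen. They comprise 13 protein-coding genes, 2 ribosomal RNA (rRNA) genes and 22 transfer RNA (tRNA) genes. RNA sequencing had been done on 2 libraries of the 46C line, mouse embryonic stem cells with a Sox1 reporter, grown on feeder cells in serum medium with leukaemia inhibitory factor. The groups are the linc1557 knockdown, in which a short hairpin RNA (shRNA) targets the long noncoding RNA linc1557, and the control shRNA. Per the labels, hairpins were delivered with the pLKO.1 vector and stably infected clones were picked after puromycin, so a library may stand for few clones. With 1 library per group no difference has a replicate check, and no test or p-value is given.

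In mammals the mitochondrial genome is a compact circle that is read almost end to end from both strands. The polymerase POLRMT makes long precursors, and tRNAs that lie between the other genes are cut out to release the messenger and ribosomal RNAs. One strand of genes, transcribed from the heavy-strand promoter, holds most of the set, and the other, transcribed from the light-strand promoter, holds mt-Nd6 and a minority of the tRNAs. The proteins are core subunits of the respiratory chain and of ATP synthase, while all other proteins of these complexes, and all protein factors that copy, process and translate the genome, are made from nuclear genes. Pluripotent stem cells are known for strong reliance on glycolysis.

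The libraries held 26693282 counts in knockdown cells and 23146210 in control cells. Ratios are knockdown over control after TMM scaling, which sets most genes near a ratio of 1, and brackets hold exact 95% counting intervals that say nothing of the spread between cultures. A gene entered when it reached 1 CPM, or 1 scaled count per 1000000, in either library, and it was called when it differed by at least 2-fold with an interval that excluded 1. Of 15850 genes entered, 14.2% were called, 4.68% higher and 9.48% lower, and the median log2 ratio was 0.02 with quartiles of -0.35 and 0.33. No row could be assigned to linc1557, which was not analysed here. The 10 stem cell markers, among them Pou5f1, Sox2 and Nanog, were all expressed, with 80214 summed counts in knockdown cells and 55130 in control cells. None of them was called, 9 of 10 had log2 ratios above 0, their median was 0.37 and their summed log2 ratio was 0.45 (0.44 to 0.47). All 12 feeder fibroblast markers were detected too, with 6617 summed counts in knockdown cells and 20192 in control cells, 9 lower and none higher. Annotated nuclear rRNA took 6.56% of the knockdown and 5.27% of the control counts. Nearly all of it fell on 1 of the 354 annotated genes, with 1751106 counts in knockdown cells and 1220238 in control cells. Stem cell markers, feeder markers and this rRNA gene therefore moved with the groups, and their part in the results that follow was not tested. In such bulk libraries fewer cells of a type and less RNA per cell cannot be told apart.

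Mitochondrial transcripts took a larger share of the knockdown library in each of the 3 classes. Together the 37 genes held 17.63% of the knockdown counts (Wilson 95% interval 17.62 to 17.65) and 15.32% of the control counts (15.31 to 15.34). The rRNA genes made up most of this, with 14.5% of the knockdown and 12.6% of the control counts. Coding genes took 3.15% of the knockdown and 2.75% of the control counts, and the tRNA genes 0.0172% of the knockdown and 0.0115% of the control counts. After scaling, the summed log2 ratio was 0.31 (0.31 to 0.32) for coding genes, 0.32 (0.32 to 0.33) for rRNA genes and 0.70 (0.63 to 0.77) for tRNA genes. All 13 coding genes and both rRNA genes had intervals above 1, as had 32.8% of all genes entered. None of these 15 was called, since none reached 2-fold.

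mt-Rnr2 (ENSMUSG00000064339, MT, 1094 to 2675), the 16S rRNA of the large mitochondrial ribosomal subunit, was the most counted member. It had 3522986 counts in knockdown cells and 2641596 in control cells, a log2 ratio of 0.33, and alone held 74.8% of the mitochondrial counts in knockdown cells and 74.5% in control cells. mt-Rnr1 (ENSMUSG00000064337, MT, 70 to 1024), the 12S rRNA of the small subunit, had 338622 counts in knockdown cells and 264769 in control cells, a log2 ratio of 0.27. Per kb of length, the level of mt-Rnr2 was 6.28 times that of mt-Rnr1 in knockdown cells and 6.02 times in control cells. The rRNA genes drew 4.59 counts per coding count in knockdown cells and 4.56 in control cells, a relation that needs no scaling and that differed by 1.01-fold (1.01 to 1.01). The balance of rRNA to coding counts was thus close to the same in both libraries. Whether the library kit selected or depleted any of these RNAs is not given here. Such levels therefore describe counts, not amounts in the cell.

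**Figure D1:**
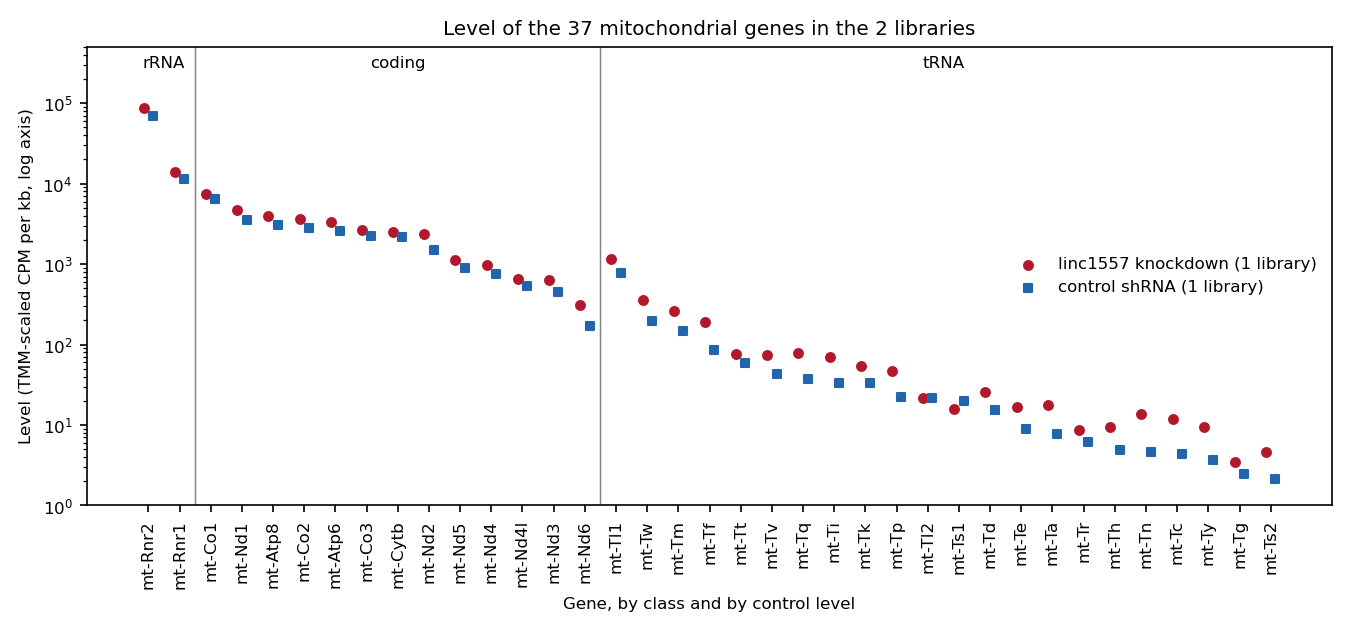
Level of each mitochondrial gene (TMM-scaled CPM per kb of gene length, log axis) in knockdown cells (circles) and control cells (squares), by class and by control level, with 1 library per group. The rRNA genes lie highest and most tRNA genes lie below all coding genes, while mt-Tl1 reaches the range of the lower coding genes with 1150 CPM per kb in knockdown cells and 785 in control cells.

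The coding genes kept 1 order of level. Ranked by CPM per kb, all 13 had the same rank in both libraries. mt-Co1 (ENSMUSG00000064351, MT, 5328 to 6872), the catalytic subunit of cytochrome c oxidase (complex IV), stood first with 7366 CPM per kb in knockdown cells and 6430 in control cells. Behind it came mt-Nd1 with 4720 CPM per kb in knockdown cells and 3490 in control cells. mt-Nd6 stood last with 307 CPM per kb in knockdown cells and 170.3 in control cells. The span from the highest to the lowest level was 24.0-fold in knockdown cells and 37.7-fold in control cells. Levels within each library thus differed far beyond counting error. The levels of 8 coding genes, mt-Co1 included, are uncertain because of nuclear copies described below. The order and the span carry the same uncertainty.

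The 7 complex I genes encode membrane subunits of NADH dehydrogenase and included the 3 coding genes with the largest ratios, mt-Nd6, mt-Nd2 and mt-Nd3. The 7 summed to 279966 counts in knockdown cells and 192056 in control cells, a log2 ratio of 0.46 (0.45 to 0.47). mt-Nd1 had 115732 counts in knockdown cells and 80547 in control cells, a log2 ratio of 0.44. mt-Nd2 (ENSMUSG00000064345, MT, 3914 to 4951) had 62276 counts in knockdown cells and 37670 in control cells, 1.56-fold higher (1.54 to 1.58). It was the largest ratio among the 12 plus-strand coding genes, and set against the sum of the other 11 it was 1.28-fold higher (1.26 to 1.29).

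The other complex I genes of the plus strand lie further along. mt-Nd3 had 5587 counts in knockdown cells and 3751 in control cells, a log2 ratio of 0.49. mt-Nd4l had 4960 in knockdown cells and 3806 in control cells (0.29), and mt-Nd4 had 34197 in knockdown cells and 24897 in control cells (0.37). mt-Nd5 had 53138 counts in knockdown cells and 39253 in control cells (0.35). The 6 plus-strand genes of this complex therefore ranged in log2 ratio between 0.29 and 0.64, all toward the knockdown.

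Summed over their genes, the other complexes had smaller ratios than complex I, although single genes overlapped, with mt-Co2 above mt-Nd4, mt-Nd5 and mt-Nd4l. All genes of complex IV and of ATP synthase lie opposite a block of nuclear copies on chromosome 1, described below. So do mt-Nd3, mt-Nd4l and mt-Nd4 of complex I, whereas its other genes and mt-Cytb do not. Whether the block has a part in the difference between complexes was not tested. The 3 genes of complex IV summed to 408424 counts in knockdown cells and 327869 in control cells, a log2 ratio of 0.23 (0.22 to 0.24). mt-Co1 had 291576 counts in knockdown cells and 239580 in control cells, and its log2 ratio of 0.20 was the smallest of all coding genes. mt-Co2, which carries the binuclear copper centre, had 64080 in knockdown cells and 46357 in control cells (0.38). mt-Co3 had 52768 counts in knockdown cells and 41932 in control cells (0.24). mt-Cytb, the cytochrome b of complex III, had 73354 counts in knockdown cells and 59594 in control cells, a log2 ratio of 0.21 (0.20 to 0.23). The ATP synthase genes had ratios with overlapping intervals. mt-Atp6 had 58420 counts in knockdown cells and 42651 in control cells (0.37), and mt-Atp8, which overlaps it by 43 bases, had 20520 in knockdown cells and 15079 in control cells (0.36).

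Coding genes of the mitochondrion often lack a full stop codon, which is completed when the messenger is polyadenylated. Of the 13 annotated transcripts 3 ended this way, each on a single T. The last 30 bases of these 3, and those of mt-Nd2 and mt-Nd6 for comparison, are shown from the GENCODE M21 transcripts, with the stop codon or its remnant in capitals.
mt-Co3: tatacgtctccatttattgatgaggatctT
mt-Nd4: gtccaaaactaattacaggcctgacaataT
mt-Cytb: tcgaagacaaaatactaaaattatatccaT
mt-Nd2: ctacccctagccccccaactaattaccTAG
mt-Nd6: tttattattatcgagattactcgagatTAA
The genes with a remnant had log2 ratios of 0.24, 0.37 and 0.21, within the range of the other plus-strand coding genes.

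By strand of origin, mt-Nd6 had a larger ratio than any of the 12 coding genes of the other strand. The minus strand of the annotation holds mt-Nd6 (ENSMUSG00000064368, MT, 13552 to 14070) and 8 tRNA genes, and the plus strand the other 28 members. mt-Nd6, a complex I subunit, had 4076 counts in knockdown cells and 2132 in control cells, 1.80-fold higher (1.71 to 1.90). Its log2 ratio of 0.85 was the largest of the coding genes and remained short of the call. For every 10000 counts of plus-strand coding genes there were 53.2 minus-strand counts in knockdown cells and 36.4 in control cells. The ratio of these ratios, free of any scaling, was 0.55 on the log2 scale (0.47 to 0.62). This value is in effect that of mt-Nd6, which held 4076 of the 4449 minus-strand counts in knockdown cells and 2132 of 2313 in control cells, and mt-Nd6 alone gave 0.54 (0.46 to 0.61).

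A limit of the strand comparison is that no source used here says whether the reads were counted by strand. The values compare annotated genes, and antisense precursor RNA across mt-Nd6 cannot be told apart from its own transcript. At its end mt-Nd6 shares 14 bases with mt-Nd5, which runs the other way.

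**Figure D2:**
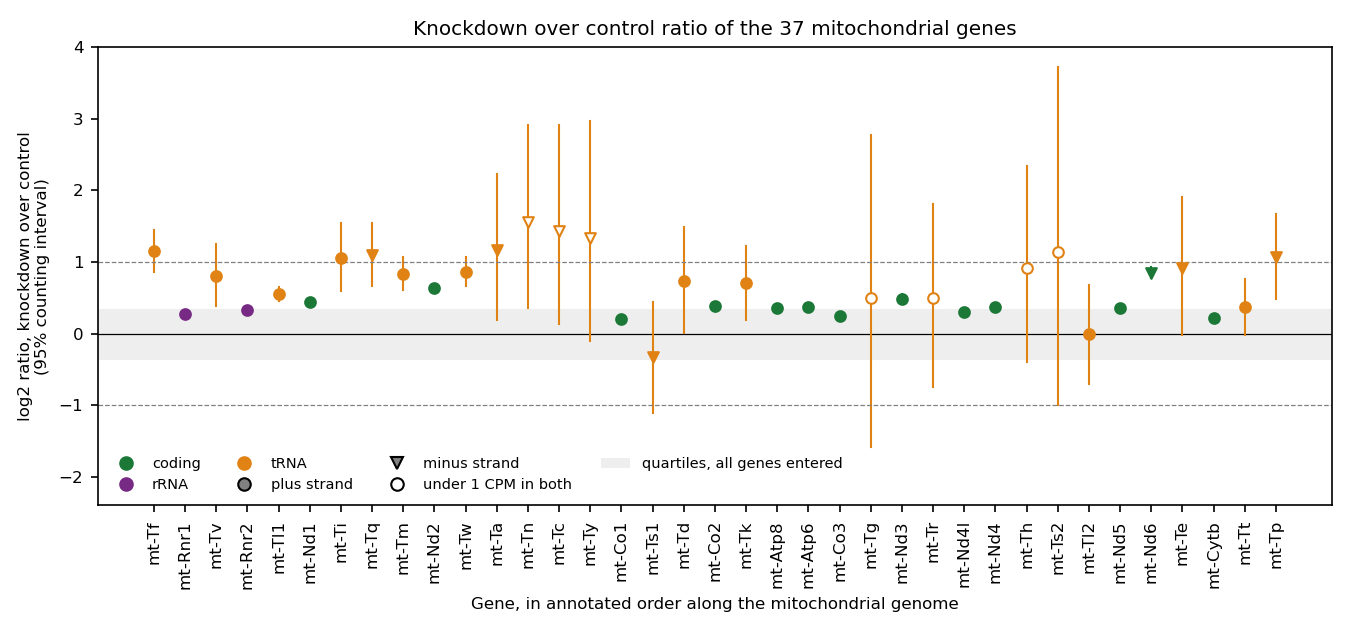
Log2 ratio of knockdown over control for each mitochondrial gene in its order along the genome, with exact 95% counting intervals (too short to see for coding and rRNA genes); colours mark class, triangles the minus strand, open symbols genes under 1 CPM in both libraries, dashed lines 2-fold, and the grey band the quartiles of all genes entered. mt-Nd6 lies at 0.85 against 0.20 to 0.64 for the other coding genes, and the tRNA ratios scatter around their median of 0.83 among those entered.

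The tRNA genes were weakly covered and had the largest ratios of the 3 classes. Their median level per kb was over 100 times lower than that of the coding genes, by 106-fold in knockdown cells and by 104-fold in control cells. None was at 0 in both libraries. Of the 22, 15 entered and 7 stayed under 1 CPM, with 6 to 25 counts in knockdown cells and 3 to 10 in control cells. Of those that entered, 5 were called, all higher in knockdown cells, beside 4.68% of all genes entered. That share was not matched to the low counts of the tRNA genes. The 5 called were mt-Tf, mt-Ti, mt-Tq, mt-Ta and mt-Tp, whose roles are to carry phenylalanine, isoleucine, glutamine, alanine and proline. They were the only calls among the 30 members entered. With total-count scaling 2 were called, mt-Tf and mt-Ta, and with a filter of 5 CPM 2 were called, mt-Tf and mt-Tq. In the whole class 20 of 22 had more scaled counts in knockdown cells, and 13 had intervals above 1. Of the called genes mt-Ta rests on the fewest reads. It entered only through the knockdown library, with 1.21 CPM there and 0.54 in control cells. So did mt-Te, which was not called, with 1.17 CPM in knockdown cells and 0.62 in control cells. The count of calls and the median of those entered thus depend in part on the filter. Reads of a mature tRNA and of a precursor that spans it cannot be told apart, so these counts are no measure of the mature tRNA pool.

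The sequences of the 5 called tRNA genes and of mt-Tl1, the most counted, are shown as annotated, with bases in capitals that also belong to a neighbouring gene.
mt-Tl1: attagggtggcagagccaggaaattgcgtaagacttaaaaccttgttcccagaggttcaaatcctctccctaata
mt-Tf: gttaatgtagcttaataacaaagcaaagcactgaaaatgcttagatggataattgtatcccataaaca
mt-Ti: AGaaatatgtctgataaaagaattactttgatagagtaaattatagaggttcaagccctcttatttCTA
mt-Tq: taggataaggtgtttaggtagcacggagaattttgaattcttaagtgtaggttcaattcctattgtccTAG
mt-Ta: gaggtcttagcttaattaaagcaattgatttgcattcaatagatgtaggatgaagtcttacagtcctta
mt-Tp: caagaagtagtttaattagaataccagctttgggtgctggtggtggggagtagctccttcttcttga
The first 2 bases of mt-Ti belong to the stop codon of mt-Nd1, and its last 3 share their position with the last 3 of mt-Tq, which is read from the opposite strand. Reads across such borders may count for either gene or for none.

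mt-Tl1 (ENSMUSG00000064340, MT, 2676 to 2750), a leucine tRNA that follows mt-Rnr2, had 2210 counts in knockdown cells and 1420 in control cells. It held 48.0% of all tRNA counts in knockdown cells and 53.2% in control cells. Its ratio was 1.46-fold (1.37 to 1.57), below the median of the class. Without it the summed log2 ratio of the tRNA genes was 0.85 instead of 0.70. At the front of the heavy-strand unit, mt-Tf had 334 counts in knockdown cells and 142 in control cells, 2.21-fold higher (1.81 to 2.71). mt-Tv, the valine tRNA between the rRNA genes, had 132 counts in knockdown cells and 71 in control cells, 1.75-fold apart (1.30 to 2.37).

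The tRNAs around mt-Nd2 had ratios near 2-fold. mt-Ti had 124 counts in knockdown cells and 56 in control cells, 2.08-fold higher (1.51 to 2.91), and mt-Tq had 143 in knockdown cells and 63 in control cells, 2.14-fold higher (1.58 to 2.92). mt-Tm, the methionine tRNA just before mt-Nd2, had 462 counts in knockdown cells and 244 in control cells, a ratio of 1.78 (1.52 to 2.09). mt-Tw, the tryptophan tRNA just after it, had 615 counts in knockdown cells and 318 in control cells, a ratio of 1.82 (1.59 to 2.09). These ratios were not particular to the stretch, since mt-Tf and mt-Tp elsewhere on the genome lay as high.

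Elsewhere the tRNA values were mixed. mt-Tk, for lysine, had 90 counts in knockdown cells and 52 in control cells (1.63-fold, 1.15 to 2.34). mt-Tt, for threonine, had 132 counts in knockdown cells and 96 in control cells, a ratio of 1.29 whose interval spanned 1 (0.99 to 1.70). mt-Tp had 80 in knockdown cells and 36 in control cells, 2.09-fold higher (1.39 to 3.19). The other 12 tRNA genes had 6 to 46 counts in knockdown cells and 3 to 37 in control cells. Among them mt-Ta had 31 counts in knockdown cells and 13 in control cells, 2.24-fold higher with a wide interval (1.14 to 4.67). The exceptions to the direction were mt-Ts1 with 28 counts in knockdown cells and 33 in control cells, and mt-Tl2 with 39 in knockdown cells and 37 in control cells, both with intervals that spanned 1.

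By strand of origin, the 8 minus-strand tRNA genes summed to 373 counts in knockdown cells and 181 in control cells, a log2 ratio of 0.96 (0.70 to 1.22). The 14 plus-strand ones summed to 4228 in knockdown cells and 2487 in control cells, a log2 ratio of 0.68 (0.61 to 0.75). Relative to the plus-strand tRNAs, the minus-strand tRNAs were 1.21-fold higher (1.01 to 1.47), an interval that nearly reached 1. The plus-strand sum leans on mt-Tl1, which had 2210 of its 4228 counts in knockdown cells and 1420 of 2487 in control cells. Its ratio was 1.46-fold, below the median of the class, and the strand comparison was not computed without it. Relative to plus-strand coding genes, plus-strand tRNAs were themselves 0.37 higher on the log2 scale (0.30 to 0.44). Within the tRNA class the strands were not clearly apart at this depth, with mt-Tf and mt-Ti of the plus strand at log2 ratios of 1.15 and 1.06 and mt-Ts1 of the minus strand at -0.32.

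With a threshold of 1.5-fold in place of 2-fold, 12 of the 30 members entered were called, all higher, which is 40.0% of them beside 11.5% of all genes entered. Of these, 10 were tRNA genes and the others were mt-Nd2 and mt-Nd6. Among the 1162 genes with at least as many summed counts as the least counted coding gene of the mitochondrion, the median log2 ratio was 0.07 and the upper quartile 0.27, and 2.32% were called. The median of the 13 mitochondrial coding genes was 0.37, as was that of the 10 stem cell markers.

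Several coding genes have near-identical copies in the nuclear genome, and these copies drew counts of the same size. A block on chromosome 1 (chr1:24611535-24616197, GRCm38) holds 7 annotated unprocessed pseudogenes that match mt-Co1, mt-Co2, mt-Atp6, mt-Co3, mt-Nd3, mt-Nd4l and mt-Nd4. Over the aligned bases 5 of the copies were identical to the mitochondrial gene and 2 had 1 difference. mt-Co2 had 64080 counts in knockdown cells, and its copy Gm28661 had 66352 there. In control cells mt-Co2 had 46357 counts and Gm28661 47680.

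The other near-complete copies gave like values. mt-Co3 drew 0.956 counts per count of Gm28437 in knockdown cells and 0.953 in control cells, and mt-Nd4l drew 0.923 per count of Gm10222 in knockdown cells and 0.927 in control cells. mt-Nd3 drew 0.935 per count of Gm28438 in knockdown cells and 0.955 in control cells. mt-Atp6 drew fewer, 0.757 per count of Gm10925 in knockdown cells and 0.755 in control cells. Partial copies, Gm29216 for the end of mt-Co1 and Gm28439 for the start of mt-Nd4, had 53781 and 12830 counts in knockdown cells and 46694 and 9159 in control cells. Counts of a nuclear copy thus tracked those of its mitochondrial gene in both libraries.

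The start of mt-Nd3 shows how little separates such a pair. The copy differs by T3C, with the mitochondrial base first and positions counted from the first base of the gene, in capitals here.
mt-Nd3: atTaacctgtacact
Gm28438: atCaacctgtacact
A read from most of the gene matches both places. Whether such a read was counted at both or at 1 of them cannot be told apart, so the levels of the 8 coding genes opposite this block, mt-Atp8 included, are uncertain. mt-Co3 had a log2 ratio of 0.24 and its copy Gm28437 0.24, whereas mt-Co1 had 0.20 and its partial copy Gm29216 0.12. The 5 coding genes outside the block had a summed log2 ratio of 0.41 (0.40 to 0.41), and the 8 opposite it 0.26 (0.26 to 0.27). A further 11 annotated copies on other chromosomes, with at least 85% identity over 100 bases or more, had at most 794 counts in knockdown cells and 974 in control cells, and 4 of them had 0 in both.

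**Figure D3:**
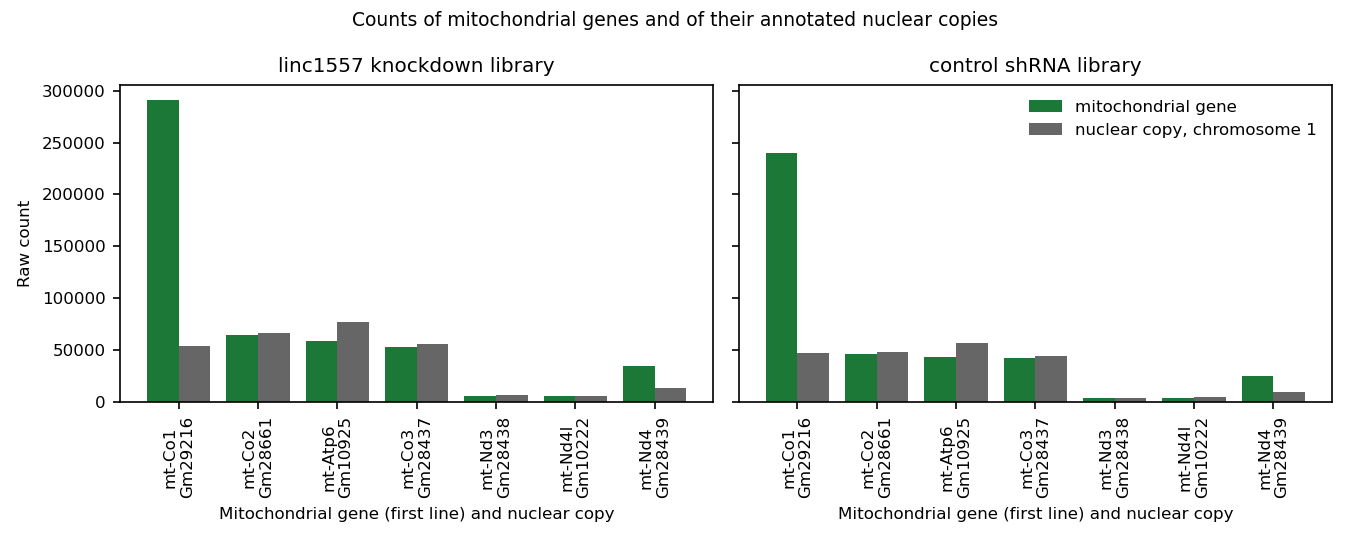
Raw counts of 7 mitochondrial coding genes (green, left of each pair) and of their annotated copies on chromosome 1 (grey), in knockdown cells (left panel) and control cells (right panel). In both libraries mt-Co2, mt-Co3, mt-Nd3 and mt-Nd4l and their copies have nearly equal bars, mt-Atp6 is lower than its copy, and mt-Co1 and mt-Nd4, which have partial copies, are higher.

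Few of the nuclear genes that express the mitochondrial genome were called. Of 168 that entered, 2 were called higher and none lower, or 1.19% beside 14.2% of all genes entered. The share called differs with counts, and was 2.32% among the 1162 best-counted genes described above. No share matched in counts to the 168 genes was computed. Of the 168, 122 had log2 ratios above 0, beside 8219 of all 15850 genes entered. Their median log2 ratio was 0.20 and their summed log2 ratio 0.17 (0.16 to 0.18). The 19 transcription and genome maintenance genes had a median of 0.31. Polrmt, the RNA polymerase, had 619 counts in knockdown cells and 654 in control cells (-0.17). Tfam, which packages the genome and activates its promoters, had 1546 in knockdown cells and 1230 in control cells (0.24). Tfb2m, the promoter-melting factor, had 736 counts in knockdown cells and 450 in control cells, a log2 ratio of 0.62. The called gene of this list was Mterf1b, a termination factor gene, with 80 counts in knockdown cells and 32 in control cells, 2.35-fold higher (1.54 to 3.67). It has a close paralogue, Mterf1a, with 199 counts in knockdown cells and 118 in control cells (0.67), so its ratio is uncertain.

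Genes of RNA processing and decay had a median of 0.20, with none of 35 called. Elac2, which cuts tRNA 3′ ends, had a log2 ratio of 0.21, Lrpprc and Slirp, partners that stabilise mitochondrial messengers, had 0.06 and 0.43, and the poly(A) polymerase gene Mtpap had 0.17. None of 29 translation factor and tRNA synthetase genes was called (median 0.30), and none of 78 mitochondrial ribosomal protein genes (median 0.17). Of 8 biogenesis regulators 7 entered, with a median of 0.03. Ppargc1b, a coactivator of mitochondrial biogenesis, was called, with 139 counts in knockdown cells and 63 in control cells, 2.08-fold higher (1.53 to 2.84). Its relative Ppargc1a had 0 counts in both libraries, and Nrf1, a transcription factor of nuclear mitochondrial genes, had a log2 ratio of 0.03.

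Nuclear genes of the respiratory chain and ATP synthase were taken by symbol prefix, which includes assembly factors such as Ndufaf1 and Sdhaf1 beside subunits. Their median log2 ratio was 0.26 over 94 genes, beside 0.37 for the 13 mitochondrial coding genes. The 2 that were called, both higher, were Ndufa4l2, a paralogue of Ndufa4 induced by low oxygen (2.38-fold, 1.99 to 2.86), and Cox4i2, an alternative isoform of a complex IV subunit (2.27-fold, 1.13 to 4.89). Cox4i2 rests on 29 counts in knockdown cells and 12 in control cells, and it reached 1 CPM only in the knockdown library.

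**Figure D4:**
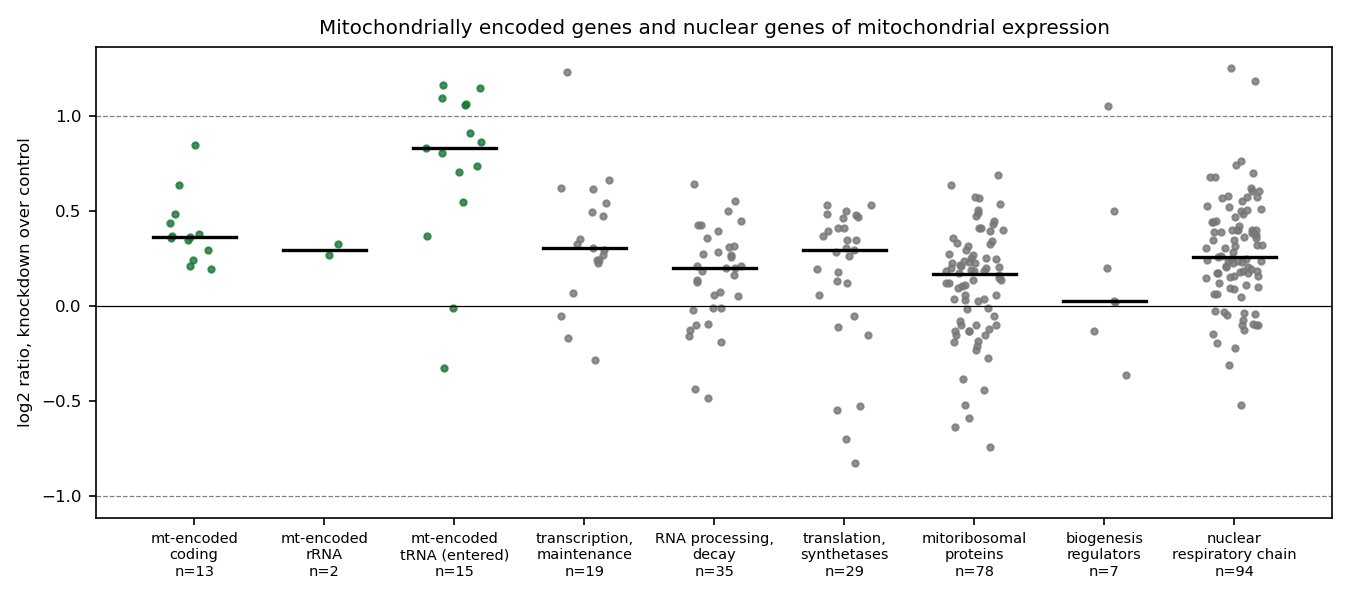
Log2 ratio of knockdown over control for each gene entered of the mitochondrially encoded classes (green) and of nuclear lists (grey); bars mark medians, dashed lines 2-fold. The tRNA median of 0.83 is the highest of the groups shown, the coding median is 0.37, and the nuclear list medians lie between 0.03 and 0.31.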

How the data were processed

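The deposited table holds raw counts per gene for 2 libraries and a gene length column. Per the labels' protocols, RNA was isolated by Trizol and a TruSeq RNA kit served for the libraries. The submitters' processing notes name the builds mm10 and GRCm38 and the tools featureCounts, HISAT2, Trim Galore and DESeq. How strand, multi-mapped reads and overlapping genes were handled is not given in the sources used here. Identifiers were matched to GENCODE M21, which left 495 of 46983 unmatched.

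TMM factors (0.960 for the knockdown, 1.04 for the control library) came from edgeR 4.0.16 in R 4.3.3, and alternative size factors from DESeq2 1.42.0. Ratios, exact Clopper-Pearson intervals and conditional odds ratios were computed in Python 3.11.15 with scipy 1.17.1, with no pseudocount added. Zero counts were replaced by a floor of 3, and ratios with both counts at or under it were left out. Intervals cover counting error only. They treat reads as independent molecules, which reads are not, so the intervals may be too narrow. No genome was used, and nuclear copies were found with blastn 2.17.0 among GENCODE transcripts (at least 85% identity over 100 bases).

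Members and lists were chosen with earlier results of these data known. All coding and rRNA genes are named with their counts, tRNA genes when their summed counts reached 100, and of each nuclear list the called genes, up to 4, and 10 fixed genes. mt-Ta, mt-Te, mt-Tg, mt-Tn, mt-Tc, mt-Ty, mt-Ts1, mt-Tl2 and Mterf1a were named after their values were seen. 1 of the listed symbols, Prorp, was not matched.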

Additional observations from a re-analysis of the deposited data

How the results depend on the processing

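Alternatives were other scalings, filters and folds, changes of members, thinning of the library with more counts, and a prior count of 2. All summed log2 ratios kept their sign under those computed. The summed log2 ratio of coding genes was 0.19 with total-count scaling, 0.35 with DESeq2 size factors, 0.33 with TMM over nuclear protein-coding genes and 0.30 without overlapping genes. It was 0.41 without the genes opposite the chromosome 1 block, an alternative chosen after seeing the data. For rRNA genes it was 0.20, 0.36 and 0.34 with the same 3 scalings. For tRNA genes it was 0.58 with total-count scaling and 0.85 without mt-Tl1, also chosen after seeing the data. Total-count scaling shifted every log2 ratio by -0.12. The mitochondrial share was 4.01% of the knockdown and 3.36% of the control counts without rRNA, and 18.7% of the knockdown and 16.2% of the control counts with the nuclear copies added. In place of 5 members, 2 were called with total-count scaling, 2 with a filter of 5 CPM, 12 at 1.5-fold and 0 at 4-fold. In place of 2 nuclear genes, 1 was called with total-count scaling, 1 with a filter of 5 CPM, 13 at 1.5-fold (8 higher, 5 lower) and 0 at 4-fold. The share of mt-Co1 in the coding genes was 21.6% of the knockdown and 23.8% of the control level per kb, and without division by length 34.7% of the knockdown and 37.6% of the control counts. No paired analysis was possible because each group has 1 library, and for the same reason none could be left out. Depth limits the tRNA genes with few counts, not the coding and rRNA genes.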

Other observations

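Across the 13 coding genes, the log2 ratio was lower where the GC content of the gene was higher (Spearman rho -0.68). The values share the same 2 libraries, the genes are not independent, and the relation is given as a description. GC content ran from 31.9% in mt-Atp8, with a log2 ratio of 0.36, to 41.1% in mt-Nd4l, with 0.29. Neither gene had the largest or the smallest log2 ratio. mt-Nd6 has 34.1% and mt-Nd2 35.7%, whereas mt-Co1 has 39.9% and mt-Cytb 39.1%. The relation of the log2 ratio to gene length was weaker (rho -0.30), as was that to the control level per kb (rho -0.39). Whether GC content has a part in the differences between coding genes was not tested.

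Adjacent genes of 1 stretch differed widely in counts. mt-Tg, the glycine tRNA between mt-Co3 and mt-Nd3, had 6 counts in knockdown cells and 4 in control cells, although its neighbour mt-Co3 had 52768 in knockdown cells and 41932 in control cells. mt-Tl1, between mt-Rnr2 and mt-Nd1, had 2210 in knockdown cells and 1420 in control cells. The 4 minus-strand tRNA genes between mt-Tw and mt-Co1, namely mt-Ta, mt-Tn, mt-Tc and mt-Ty, had 16 to 31 counts in knockdown cells and 6 to 13 in control cells.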
